A study of Mus musculus with 9 samples.

Results

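The mitosis and cytokinesis genes followed here are 58 genes whose products enter cells into mitosis, build the spindle and kinetochores, separate chromosomes and divide the cell. They were chosen by symbol from a table of 18094 mouse genes, with earlier results of these data known. Each of the 58 was found in that table and passed the filter on low counts that left 15277 tested genes. The RNA came from endothelium of the mouse heart, taken up with microbeads on a magnetic sorter, and was read as 9 libraries of poly(A)-selected RNA. Of these, 3 came from 22-week BPH/2J mice, 3 from 4-week BPH/2J mice and 3 from 22-week BPN/3J mice. BPH/2J mice are inbred and hypertensive, and BPN/3J is their normotensive counterpart. No 4-week BPN/3J group was analysed here, so a change with age can be read in BPH/2J alone, and these data do not separate it from growth of the heart or from the course of the disease. The labels name no drug, transgene or operation, and the sources used here do not give the number of mice behind a library. Nothing in them says that libraries of a group came from separate mice, so p-values reflect only how these libraries vary.

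A cell enters mitosis when cyclin B and cyclin A bind and activate the kinase Cdk1, with Aurora and Polo kinases acting beside it. Spindle microtubules then attach to kinetochores, the protein plates on each centromere, and the spindle checkpoint holds back the anaphase-promoting complex (APC/C) until each chromosome is attached. APC/C with Cdc20 then marks cyclin B and securin for destruction, sister chromatids part, and a contractile ring divides the cell. Transcripts of these genes accumulate in G2 and M phase, under the MuvB complexes with B-Myb and FoxM1, and are held low in resting cells by the DREAM complex. Capillary endothelium of the growing heart divides, whereas most endothelial cells of the adult heart rest.

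Libraries held 28806840 to 32913813 counts, and values are CPM, the counts of a gene scaled to a common library size with TMM factors (trimmed mean of M values). Each of the 10 endothelial markers was detected in each library, with a summed level of 14578 to 14737 CPM in 22-week BPH/2J, 13472 to 14669 in 4-week BPH/2J and 11910 to 12428 in BPN/3J. Markers of other cells were present at lower levels. Summed over 10 markers each, macrophages and monocytes gave 259 to 795 CPM, fibroblasts 383 to 604, lymphocytes 42.5 to 120, pericytes with smooth muscle 1334 to 2464 and cardiomyocytes 284 to 848, and 7 erythroid genes gave 36.9 to 94.0. Among those of the non-erythroid lists, 1 cardiomyocyte marker was at 0 in BPN/3J replicate 2 and no other marker was at 0 in a library. In bulk RNA, fewer dividing cells and less of these transcripts per dividing cell cannot be told apart.

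In BPH/2J endothelium, all 58 genes fell at 22 weeks against 4 weeks. Summed over the 58, the level was 297, 457 and 315 CPM in the 22-week libraries, against 1867, 1478 and 1757 CPM in the 4-week libraries. The 22-week BPN/3J libraries held 310, 282 and 355 CPM. Both 22-week groups thus lay far below the 4-week group. Since the 4-week libraries are all BPH/2J, line and age cannot be told apart in the distance from BPN/3J. As a share of all counts, the 58 genes took 0.0304%, 0.0468% and 0.0323% in 22-week BPH/2J, against 0.189%, 0.145% and 0.174% at 4 weeks.

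The edgeR quasi-likelihood test with Benjamini-Hochberg adjustment over all 15277 genes called 58 of 58 lower and 0 higher at 22 weeks, where 21.1% of all tested genes were called lower and 19.9% higher at an adjusted p below 0.05. Adjusted p ran from 7.49e-06 to 0.000332. The median log2 difference of the 58 genes was -2.81, a 7.02-fold lower level, beside 0.005 over all tested genes. It ran from -3.53 for Troap to -0.67 for Smc4. The fall was at least 8-fold in 20 genes and at least 4-fold in 49, and only Smc4 stayed under 2-fold. For each of the 58, the highest 22-week value lay below the lowest 4-week value, whereas 25.7% of all tested genes were that clearly lower and 25.5% that clearly higher. Without 22-week replicate 2, which is described further on, all 58 were still called lower, and the median was -3.22.

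**Figure D1:**
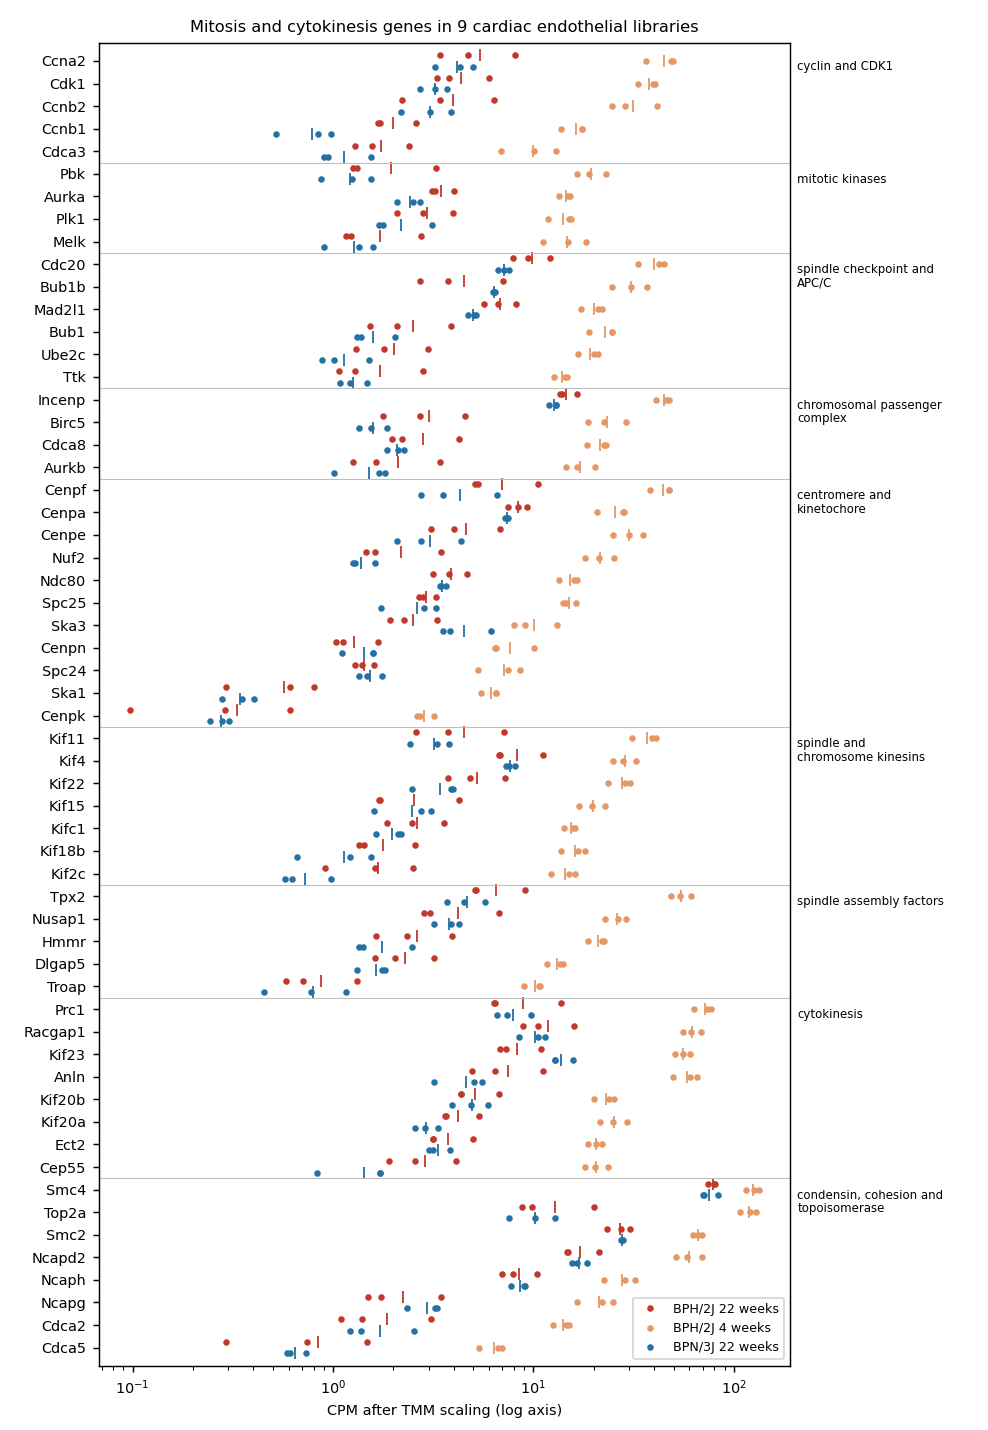
Level of each of the 58 mitosis and cytokinesis genes in the 9 libraries, in CPM after TMM scaling on a log axis. Points are libraries, ticks are group means (n = 3), and genes are grouped by role. The 4-week BPH/2J points stand to the right of both 22-week groups for all 58 genes.

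Markers of another cell type moved with the same contrast. Of 10 macrophage and monocyte markers, 9 were lower and 1 was higher at 22 weeks, with summed levels of 259, 282 and 311 CPM in 22-week BPH/2J, against 445, 606 and 795 CPM in 4-week BPH/2J. Of 10 lymphocyte markers, 6 were higher at 22 weeks and 0 lower. Endothelial markers gave 3 higher and 1 lower of 10, fibroblast markers 3 higher and 4 lower of 10, and pericyte with smooth muscle markers 3 lower of 10. Cardiomyocyte markers gave 2 higher and 0 lower of 9 tested, led by Tcap and Myh6, and erythroid genes 1 higher and 0 lower of 5 tested. Mitochondrially encoded transcripts took 1.91%, 1.45% and 1.59% of counts in 22-week BPH/2J, against 2.63%, 1.19% and 1.33% at 4 weeks. The part of these shifts in the level of the mitotic genes was not tested.

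**Figure D2:**
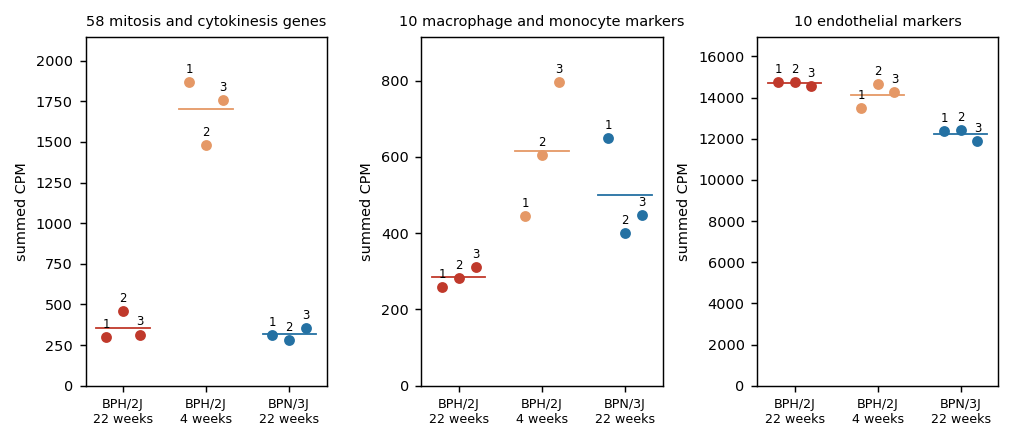
Summed CPM in each library of the 58 mitosis and cytokinesis genes, of 10 macrophage and monocyte markers and of 10 endothelial markers. Points are libraries with their replicate number, lines are group means (n = 3), and each axis starts at 0. The 58 genes sum to 1478 to 1867 CPM in 4-week BPH/2J and to at most 457 CPM in the 6 libraries of 22 weeks.

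Promoters of G2 and M phase genes are known for a pair of short elements, the CHR (cell cycle genes homology region, TTTGAA) and the CCAAT box bound by NF-Y. RefSeq promoter sequences (GRCm38.p6, 250 bases before to 50 after each start site) matched 47 of the 58 genes by symbol, with 52 promoters. No promoter was matched for Spc24, Ska1, Kif20a, Cdca2, Incenp, Aurkb, Tpx2, Smc4, Pbk, Dlgap5 or Ccna2. Searched on both strands, TTTGAA stood in 39 of 52 promoters (75%), against 17.9% of all 32851 promoters in that table. CCAAT stood in 37 of 52 (71.2%), against 37.4% of all promoters, and both together in 57.7%, against 6.95%. Of the member promoters, 46.2% held CCAAT 2 or more times, against 11.7% of all. The motifs were counted as letters, so matches can overlap each other.

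Of 50 TTTGAA matches, 40 (80%) began within 60 bases before to 50 after the start site, against 28.2% of TTTGAA matches over all promoters. This stretch was not among the settings planned for the search. By role, TTTGAA stood in 10 of 10 promoters of 7 cytokinesis genes and 7 of 7 of the spindle kinesins, and in 1 of 3 of the spindle assembly factors. Since 4 genes (Cenpk, Cep55, Ect2 and Prc1) have more than 1 listed promoter, and these windows can hold the same site, each gene was also counted once, by its first listed promoter, a count added after seeing the data. TTTGAA then stood in 36 of 47 genes (76.6%), against 18.1% of all 27025 genes, and 37 of 46 matches (80.4%) lay in the stretch around the start site, against 27.5%. Among the other pathway lists described further on, TTTGAA stood in 42.9% of promoters of spindle and cytokinesis genes, 35.5% of kinetochore genes, 28.6% of entry and exit regulators, 27.6% of transcription regulators, 25% of condensin and cohesin genes and 11.8% of the APC/C list. Within the 47 matched genes, the median log2 difference was -2.71 over the 36 genes with TTTGAA and -3.02 over the 11 without it, which are Birc5, Bub1, Ccnb1, Cenpe, Cenpk, Mad2l1, Melk, Ncaph, Nuf2, Nusap1 and Troap. A match of letters is not a bound site, and a missing one says only that these letters are not in this window.

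**Figure D3:**
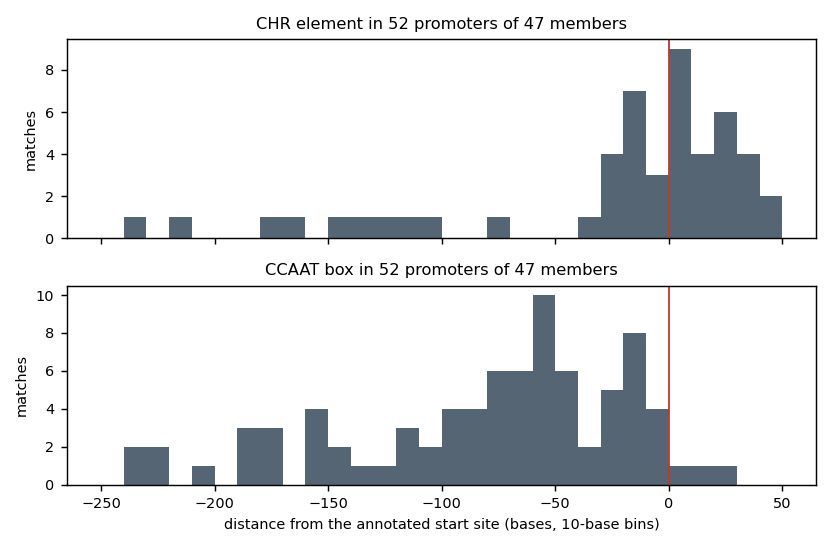
Positions of TTTGAA (CHR) and CCAAT matches on either strand in 52 RefSeq promoters of 47 mitosis and cytokinesis genes, as the distance in bases of a match's first base from the annotated start site (red line), in 10-base bins. Of the CHR matches, 40 of 50 begin between 60 bases before and 50 after the start site, and CCAAT matches lie mostly upstream. Sites shared by overlapping windows of 1 gene are drawn once for each window.

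The 150 bases before the start site follow for 6 genes, some of the same role. Of these, 5 have a TTTGAA close to the start and Ccnb1 has none in its window. They are examples of how CHR and CCAAT letters are spaced before the start site, and do not stand for the whole set. In other members TTTGAA begins after the start site, such as at base 3 in Kif23 and base 31 in Plk1. Capitals mark TTTGAA and CCAAT, written TTCAAA and ATTGG where the match is on the other strand.
Cdk1, GRCm38.p6, chr10:69352913-69353062, minus strand: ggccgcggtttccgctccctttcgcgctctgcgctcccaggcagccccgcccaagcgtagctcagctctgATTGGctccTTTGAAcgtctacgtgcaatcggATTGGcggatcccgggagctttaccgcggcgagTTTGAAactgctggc
Ccnb1, GRCm38.p6, chr13:100786487-100786636, minus strand: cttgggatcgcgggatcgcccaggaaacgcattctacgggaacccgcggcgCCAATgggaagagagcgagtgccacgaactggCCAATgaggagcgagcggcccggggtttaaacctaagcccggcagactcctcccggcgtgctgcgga
Cdc20, GRCm38.p6, chr4:118437344-118437493, minus strand: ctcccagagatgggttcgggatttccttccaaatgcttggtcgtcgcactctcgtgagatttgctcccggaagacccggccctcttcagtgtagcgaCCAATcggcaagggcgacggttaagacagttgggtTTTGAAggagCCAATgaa
Ube2c, GRCm38.p6, chr2:164769779-164769928, plus strand: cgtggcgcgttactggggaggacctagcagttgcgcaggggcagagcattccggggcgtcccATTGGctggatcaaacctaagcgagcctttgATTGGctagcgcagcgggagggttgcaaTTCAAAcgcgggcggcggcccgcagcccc
Kif11, GRCm38.p6, chr19:37376232-37376381, plus strand: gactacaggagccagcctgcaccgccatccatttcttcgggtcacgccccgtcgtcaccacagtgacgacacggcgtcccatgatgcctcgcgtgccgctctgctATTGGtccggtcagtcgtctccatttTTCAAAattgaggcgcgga
Top2a, GRCm38.p6, chr11:99024190-99024339, minus strand: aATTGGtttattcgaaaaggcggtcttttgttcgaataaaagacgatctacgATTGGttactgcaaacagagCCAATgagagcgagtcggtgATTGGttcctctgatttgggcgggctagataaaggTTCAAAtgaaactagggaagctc
Counted back from the start site, TTTGAA begins at -15 and -71 in Cdk1, -18 in Cdc20, -29 in Ube2c, -19 in Kif11 and -23 in Top2a. CCAAT begins at -48 and -80 in Cdk1, -8 and -53 in Cdc20, -57 and -88 in Ube2c, and -45 in Kif11. It thus lies upstream of TTTGAA in Ube2c and Kif11, on both sides of it in Cdc20, and between and before the pair of TTTGAA in Cdk1. Top2a carries CCAAT at -58, -78, -98 and -149, in steps of 20 bases between the nearer 3. Ccnb1 carries CCAAT at -67 and -99.

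Among the cyclins and Cdk1, Ccna2 (cyclin A2, which pairs with Cdk in S and G2 phase) measured 3.41, 8.08 and 4.74 CPM in 22-week BPH/2J, 49.9, 36.3 and 48.5 CPM in 4-week BPH/2J and 4.29, 3.23 and 5.02 CPM in BPN/3J. It fell 8.30-fold with age (log2 -3.05 ± 0.27 SE, adjusted p = 2.52e-05, edgeR quasi-likelihood test). The 2 groups of 22 weeks overlapped, and replicate 2 was the highest 22-week BPH/2J library. Cdk1, the kinase that starts mitosis, read 3.31, 6.02 and 3.77 CPM in 22-week BPH/2J, 39.7, 33.4 and 40.5 CPM in 4-week BPH/2J and 3.24, 2.71 and 3.68 CPM in BPN/3J. Its fall with age was 8.67-fold, at log2 -3.12 ± 0.20 and adjusted p = 8.17e-06, with no overlap between the ages. Ccnb1 (cyclin B1, the partner of Cdk1 at mitotic entry) had 1.72, 2.61 and 1.68 CPM in 22-week BPH/2J, 17.4, 13.8 and 17.6 CPM in 4-week BPH/2J and 0.844, 0.521 and 0.982 CPM in BPN/3J. All 3 groups were apart, with BPN/3J the lowest. Ccnb1 fell 8.11-fold with age (adjusted p = 1.16e-05) and was 2.55-fold higher in BPH/2J than in BPN/3J at 22 weeks (log2 1.35 ± 0.27, adjusted p = 0.00290). The mouse genome holds 5 annotated pseudogene copies of Ccnb1 at 96.1% to 99.2% identity over 336 to 1294 bases, none of them in the table, and 5 other members (Cdc20, Mad2l1, Ndc80, Pbk and Racgap1) have such copies of at least 95% identity, so the way the authors counted reads that match several places could alter the values of these genes. Ccnb2 (cyclin B2) and Cdca3, a mitotic entry factor, fell, at log2 -2.98 and -2.52. Neither was called between the lines.

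The 4 genes grouped here as mitotic kinases fell 4.19-fold to 9.96-fold with age, and kinases such as Cdk1 and Aurkb are given under other roles. Pbk measured 1.26, 3.25 and 1.32 CPM in 22-week BPH/2J, 22.9, 16.5 and 18.9 CPM in 4-week BPH/2J and 1.25, 0.869 and 1.54 CPM in BPN/3J. Its difference with age, log2 -3.32 ± 0.31 (adjusted p = 3.51e-05), was the largest of the 4, and 2 of its 22-week BPH/2J libraries lay within the BPN/3J range. Aurka, Aurora kinase A of centrosomes and spindle poles, had 3.11, 4.02 and 3.22 CPM in 22-week BPH/2J, 15.3, 13.4 and 14.8 CPM in 4-week BPH/2J and 2.50, 2.08 and 2.70 CPM in BPN/3J. It fell less than the other 3 with age (log2 -2.07 ± 0.14, adjusted p = 1.11e-05). All 3 of its 22-week BPH/2J values lay above all 3 of BPN/3J, a 1.42-fold difference (log2 0.51 ± 0.15, adjusted p = 0.0242). Plk1, the Polo kinase that acts from centrosome maturation to cytokinesis, fell, at log2 -2.25, and Melk at -3.11. Neither was called between the lines.

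In the checkpoint and APC/C group, Cdc20, the activator that couples APC/C to its mitotic substrates, had 7.95, 12.0 and 9.41 CPM in 22-week BPH/2J, 44.7, 33.1 and 42.4 CPM in 4-week BPH/2J and 7.09, 6.67 and 7.54 CPM in BPN/3J. It fell 4.09-fold with age (log2 -2.03 ± 0.15, adjusted p = 1.49e-05). It stood above BPN/3J in all 3 BPH/2J libraries of 22 weeks, at 1.38-fold (log2 0.46 ± 0.16, adjusted p = 0.0441). Exons of Cdc20 overlap those of Elovl1 on the opposite strand, and no source used here gives the strand setting of the counts, so their reads cannot be told apart there. The same limit holds for 10 of the 58 genes, which overlap a protein-coding gene of the table on the opposite strand: Cdc20, Ska3, Kif20a, Ncapg, Cenpk, Nusap1, Ccna2, Cdca8, Kif4 and Prc1. Elovl1 itself averaged 103 ± 2.00 CPM in 22-week BPH/2J and 89.3 ± 2.56 CPM in BPN/3J (SD, n = 3), higher by log2 0.21 (edgeR adjusted p = 0.0228). Bub1b (BubR1, a kinetochore checkpoint protein) measured 2.72, 7.02 and 3.74 CPM in 22-week BPH/2J, 36.9, 24.5 and 30.8 CPM in 4-week BPH/2J and 6.35, 6.43 and 6.32 CPM in BPN/3J. The BPN/3J libraries were close to each other, and those of 22-week BPH/2J lay on both sides of them. Bub1b fell 6.84-fold with age (log2 -2.77 ± 0.27, adjusted p = 4.45e-05) and was not called between the lines (log2 -0.50 ± 0.28, adjusted p = 0.188). Mad2l1 (Mad2, the checkpoint protein that binds Cdc20) had 6.65, 8.21 and 5.67 CPM in 22-week BPH/2J, 21.9, 17.3 and 21.0 CPM in 4-week BPH/2J and 4.69, 5.04 and 5.19 CPM in BPN/3J. Its 2.93-fold fall with age was the smallest of the 6 (log2 -1.55 ± 0.14, adjusted p = 3.07e-05). In BPH/2J it was 1.38-fold higher than in BPN/3J (log2 0.46 ± 0.15, adjusted p = 0.0344), again without overlap. Ube2c, the ubiquitin-conjugating enzyme of APC/C, fell, at log2 -3.25, the largest fall here, and the checkpoint kinases Bub1 and Ttk fell at -3.19 and -3.01. Between the lines Ube2c missed the threshold, at log2 0.84 and adjusted p = 0.0540.

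The chromosomal passenger complex, which corrects faulty kinetochore attachments and later acts in cytokinesis, changed unevenly. Its scaffold Incenp measured 13.8, 16.4 and 13.6 CPM in 22-week BPH/2J, 45.8, 40.7 and 47.4 CPM in 4-week BPH/2J and 12.9, 12.0 and 13.0 CPM in BPN/3J. Incenp fell only 3.05-fold with age, though with the lowest adjusted p of the 58 genes (log2 -1.61 ± 0.09, adjusted p = 7.49e-06). Its 3 BPH/2J values of 22 weeks all lay above BPN/3J, but the difference was not called (log2 0.21 ± 0.10, adjusted p = 0.103). Birc5 (survivin, which binds the complex to centromeres) had 1.78, 4.54 and 2.71 CPM in 22-week BPH/2J, 29.0, 18.7 and 22.5 CPM in 4-week BPH/2J and 1.86, 1.36 and 1.54 CPM in BPN/3J. Birc5 fell 7.77-fold with age (log2 -2.96 ± 0.28, adjusted p = 3.54e-05). Between the lines it was called higher in BPH/2J (log2 0.92 ± 0.33, adjusted p = 0.0478) although 1 BPH/2J library lay within the BPN/3J range. Aurkb, the kinase of the complex, and Cdca8 (borealin) fell, at log2 -3.02 and -2.93, at 8.11-fold and 7.62-fold lower. The contrast between subunits was not tested.

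All 11 centromere and kinetochore genes fell, 3.07-fold to 10.7-fold. Cenpf, a large protein of the outer kinetochore and nuclear envelope, had 5.09, 10.5 and 5.32 CPM in 22-week BPH/2J, 47.4, 38.2 and 47.3 CPM in 4-week BPH/2J and 3.54, 2.74 and 6.60 CPM in BPN/3J. It fell 6.36-fold (log2 -2.67 ± 0.31, adjusted p = 0.000104), and the lines overlapped at 22 weeks. Cenpa, the histone H3 variant that marks centromeres, measured 7.46, 9.27 and 8.34 CPM in 22-week BPH/2J, 28.3, 20.7 and 27.9 CPM in 4-week BPH/2J and 7.49, 7.19 and 7.40 CPM in BPN/3J. It had the smallest fall of the 11, 3.07-fold (log2 -1.62 ± 0.13, adjusted p = 1.98e-05). Cenpe, a kinesin motor of the kinetochore, had 3.08, 6.82 and 4.00 CPM in 22-week BPH/2J, 35.1, 25.0 and 30.1 CPM in 4-week BPH/2J and 2.73, 2.08 and 4.35 CPM in BPN/3J, with the lines overlapping. Cenpe fell 6.48-fold with age (log2 -2.70 ± 0.29, adjusted p = 6.52e-05). Ska3, of the SKA complex that couples kinetochores to microtubule ends, had 2.27, 3.31 and 1.93 CPM in 22-week BPH/2J, 13.1, 7.96 and 9.09 CPM in 4-week BPH/2J and 3.85, 3.54 and 6.17 CPM in BPN/3J. Its 3 groups were apart, with 22-week BPH/2J the lowest. Ska3 fell 4.01-fold with age (adjusted p = 0.000332) and was 1.80-fold lower in BPH/2J than in BPN/3J (log2 -0.85 ± 0.29, adjusted p = 0.0386). Exons of Ska3 overlap Sap18 on the opposite strand, with the same limit on strand. Sap18 averaged 68.4 ± 2.19 CPM in 22-week BPH/2J and 66.8 ± 3.20 CPM in BPN/3J (SD, n = 3) and was not called (log2 0.03, edgeR adjusted p = 0.681).

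The remaining kinetochore genes were Ska1, Nuf2, Cenpk, Cenpn, Spc25, Spc24 and Ndc80. Ska1 fell the most, at log2 -3.43, while its partner Ska3 fell at -2.00, and between the lines Ska1 was at 0.72 (adjusted p = 0.146) where Ska3 was at -0.85. The 4 subunits of the Ndc80 complex, the main microtubule coupler, also fell by unequal amounts, with Nuf2 at log2 -3.30, Spc25 at -2.35, Spc24 at -2.31 and Ndc80 at -1.98. Per kb of the deposited gene length, Nuf2 averaged 0.852 CPM per kb in BPH/2J at 22 weeks and 8.39 at 4 weeks, and Ndc80 averaged 1.76 at 22 weeks and 6.92 at 4 weeks. On that scale the order of the 2 subunits turned round between the ages, a contrast that was not tested. Ndc80 has 2 annotated pseudogene copies of at least 95% identity, neither of them in the table. Cenpn and Cenpk, of the inner centromere network, fell, at log2 -2.58 and -3.08. Cenpk was the lowest of the 58 genes, at 0.333 ± 0.260 CPM in 22-week BPH/2J (SD, n = 3), and 1 of its libraries held about the 3 counts that a count of 0 allows, so its fold is imprecise.

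The 7 kinesins that move spindle poles and chromosomes fell 3.45-fold to 9.04-fold. Kif11 (Eg5, which pushes the spindle poles apart) had 2.59, 7.14 and 3.74 CPM in 22-week BPH/2J, 39.0, 31.1 and 40.7 CPM in 4-week BPH/2J and 3.31, 2.43 and 3.79 CPM in BPN/3J. It fell 8.21-fold (log2 -3.04 ± 0.29, adjusted p = 3.72e-05), and replicate 2 of the 22-week BPH/2J group stood well above the other 22-week libraries. Kif4, a chromosome-bound kinesin that also acts on the central spindle, had 6.71, 11.2 and 6.83 CPM in 22-week BPH/2J, 32.4, 24.9 and 28.1 CPM in 4-week BPH/2J and 7.33, 7.57 and 8.07 CPM in BPN/3J. Its fall was the smallest of the 7, 3.45-fold (log2 -1.79 ± 0.18, adjusted p = 5.09e-05). Kif2c (MCAK, which removes tubulin from microtubule ends) had 0.908, 2.51 and 1.61 CPM in 22-week BPH/2J, 16.1, 12.2 and 15.1 CPM in 4-week BPH/2J and 0.574, 0.625 and 0.982 CPM in BPN/3J. The lines overlapped through BPH/2J replicate 1 and BPN/3J replicate 3. Kif2c fell 8.59-fold with age (log2 -3.10 ± 0.28, adjusted p = 3.11e-05) and was called 2.30-fold higher in BPH/2J than in BPN/3J (log2 1.20 ± 0.36, adjusted p = 0.0246). Kif18b fell, at log2 -3.18, Kif15 at -2.96, Kifc1 (a kinesin that walks toward microtubule minus ends) at -2.54 and Kif22 (the chromokinesin Kid) at -2.39. None of these 4 was called between the lines.

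The 5 spindle assembly factors included the largest fall of all, that of Troap, at 0.871 ± 0.394 CPM in 22-week BPH/2J and 10.1 ± 0.989 CPM in 4-week BPH/2J (SD, n = 3), 11.6-fold lower. Tpx2, which activates Aurora kinase A and seeds microtubules, had 5.19, 9.11 and 5.12 CPM in 22-week BPH/2J, 61.3, 48.5 and 53.9 CPM in 4-week BPH/2J and 4.49, 3.72 and 5.75 CPM in BPN/3J. It fell 8.43-fold (log2 -3.07 ± 0.22, adjusted p = 1.22e-05), and the lines overlapped. Nusap1, a microtubule-bundling protein of the spindle, had 2.85, 6.69 and 3.06 CPM in 22-week BPH/2J, 29.0, 22.8 and 26.5 CPM in 4-week BPH/2J and 3.88, 3.20 and 4.25 CPM in BPN/3J. Replicates 1 and 3 of 22-week BPH/2J lay below every BPN/3J library and replicate 2 above. Nusap1 fell 6.20-fold with age (log2 -2.63 ± 0.27, adjusted p = 5.29e-05). Hmmr, a microtubule-associated protein and hyaluronan receptor, and Dlgap5 (HURP, which stabilises kinetochore fibres) fell, at log2 -2.99 and -2.53. None of the 5 was called between the lines.

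All 8 cytokinesis genes fell with age, and between the lines 1 was called higher and 1 lower in BPH/2J. Prc1, which bundles the central spindle, had 6.42, 13.8 and 6.38 CPM in 22-week BPH/2J, 77.3, 63.3 and 73.7 CPM in 4-week BPH/2J and 7.36, 6.57 and 9.72 CPM in BPN/3J. It fell 8.06-fold with age (log2 -3.01 ± 0.26, adjusted p = 2.53e-05), and the lines overlapped. Racgap1, the GTPase-activating subunit of centralspindlin, had 10.51, 15.99 and 8.86 CPM in 22-week BPH/2J, 68.51, 55.74 and 60.81 CPM in 4-week BPH/2J and 10.50, 8.48 and 11.40 CPM in BPN/3J. Racgap1 fell 5.23-fold with age (log2 -2.39 ± 0.19, adjusted p = 1.91e-05) and was not called between the lines (log2 0.22 ± 0.20, adjusted p = 0.404). Kif23, the kinesin subunit of centralspindlin, had 6.81, 10.8 and 7.28 CPM in 22-week BPH/2J, 55.7, 50.7 and 60.7 CPM in 4-week BPH/2J and 12.9, 12.8 and 15.7 CPM in BPN/3J. The 3 groups were apart, and the highest 22-week BPH/2J library lay below the lowest of BPN/3J. Kif23 fell 6.70-fold with age (log2 -2.74 ± 0.16, adjusted p = 7.77e-06). It was 1.66-fold lower in BPH/2J than in BPN/3J (log2 -0.73 ± 0.16, adjusted p = 0.00598), so the 2 centralspindlin subunits gave different calls between the lines, a contrast that was not itself tested. No annotated copy or overlapping exon was found for Kif23 with the search used.

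Cep55, which recruits the abscission machinery to the midbody, had 2.56, 4.12 and 1.90 CPM in 22-week BPH/2J, 23.6, 18.0 and 20.3 CPM in 4-week BPH/2J and 1.72, 0.834 and 1.72 CPM in BPN/3J. The 22-week groups did not overlap, though BPH/2J replicate 3 and the 2 higher BPN/3J libraries were close. Cep55 fell 7.20-fold with age (log2 -2.85 ± 0.27, adjusted p = 3.56e-05) and was called 2.00-fold higher in BPH/2J than in BPN/3J (log2 1.00 ± 0.32, adjusted p = 0.0310). Anln (anillin, the scaffold of the contractile ring) fell, at log2 -2.96, Kif20a at -2.58, Ect2 (the RhoA activator that sets the cleavage furrow) at -2.44 and Kif20b at -2.16. Kif20a was higher in all 3 BPH/2J libraries than in BPN/3J at 22 weeks, at log2 0.52, but missed the threshold (adjusted p = 0.0556). Its exons overlap Cdc23 on the opposite strand, which was itself higher in BPH/2J (log2 0.34, edgeR adjusted p = 0.00372).

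The genes that fold and untangle chromosomes held both the smallest and some of the largest falls. Smc4, a core ATPase of condensin, had 74.5, 80.6 and 80.0 CPM in 22-week BPH/2J, 133, 115 and 126 CPM in 4-week BPH/2J and 70.2, 70.8 and 83.5 CPM in BPN/3J. It fell 1.59-fold with age (log2 -0.67 ± 0.08, adjusted p = 0.000135), with all 3 libraries of 22-week BPH/2J below those of 4 weeks. Top2a, the topoisomerase that untangles sister chromatids, had 8.72, 20.0 and 9.83 CPM in 22-week BPH/2J, 120.0, 107 and 128 CPM in 4-week BPH/2J and 10.2, 7.54 and 12.8 CPM in BPN/3J. Top2a fell 9.24-fold (log2 -3.21 ± 0.28, adjusted p = 2.52e-05), and replicate 2 stood well above the other 22-week BPH/2J libraries. Smc2, the other ATPase of condensin, had 27.3, 30.3 and 23.3 CPM in 22-week BPH/2J, 69.7, 62.5 and 66.2 CPM in 4-week BPH/2J and 27.6, 27.9 and 27.3 CPM in BPN/3J. Smc2 fell 2.45-fold with age (log2 -1.29 ± 0.09, adjusted p = 1.16e-05), and the lines overlapped.

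Smc2 and Smc4 serve both condensins, and the subunits particular to condensin I fell too, with Ncapg at log2 -3.24, Ncapd2 at -1.81 and Ncaph at -1.72. The 3 subunits particular to condensin II, of which Ncapd3 and Ncaph2 are named after their values were seen, fell, at log2 -1.79 (Ncapg2), -0.57 (Ncapd3) and -0.22 (Ncaph2), each called by edgeR (adjusted p = 1.34e-05, 7.63e-05 and 0.0180). Condensin I acts on chromosomes after the nuclear envelope breaks down, and condensin II is present in the nucleus through interphase. Cdca5 (sororin, which protects cohesion) and Cdca2, which brings a phosphatase to anaphase chromosomes, both fell, at log2 -2.91. None of the 8 genes was called between the lines.

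**Figure D4:**
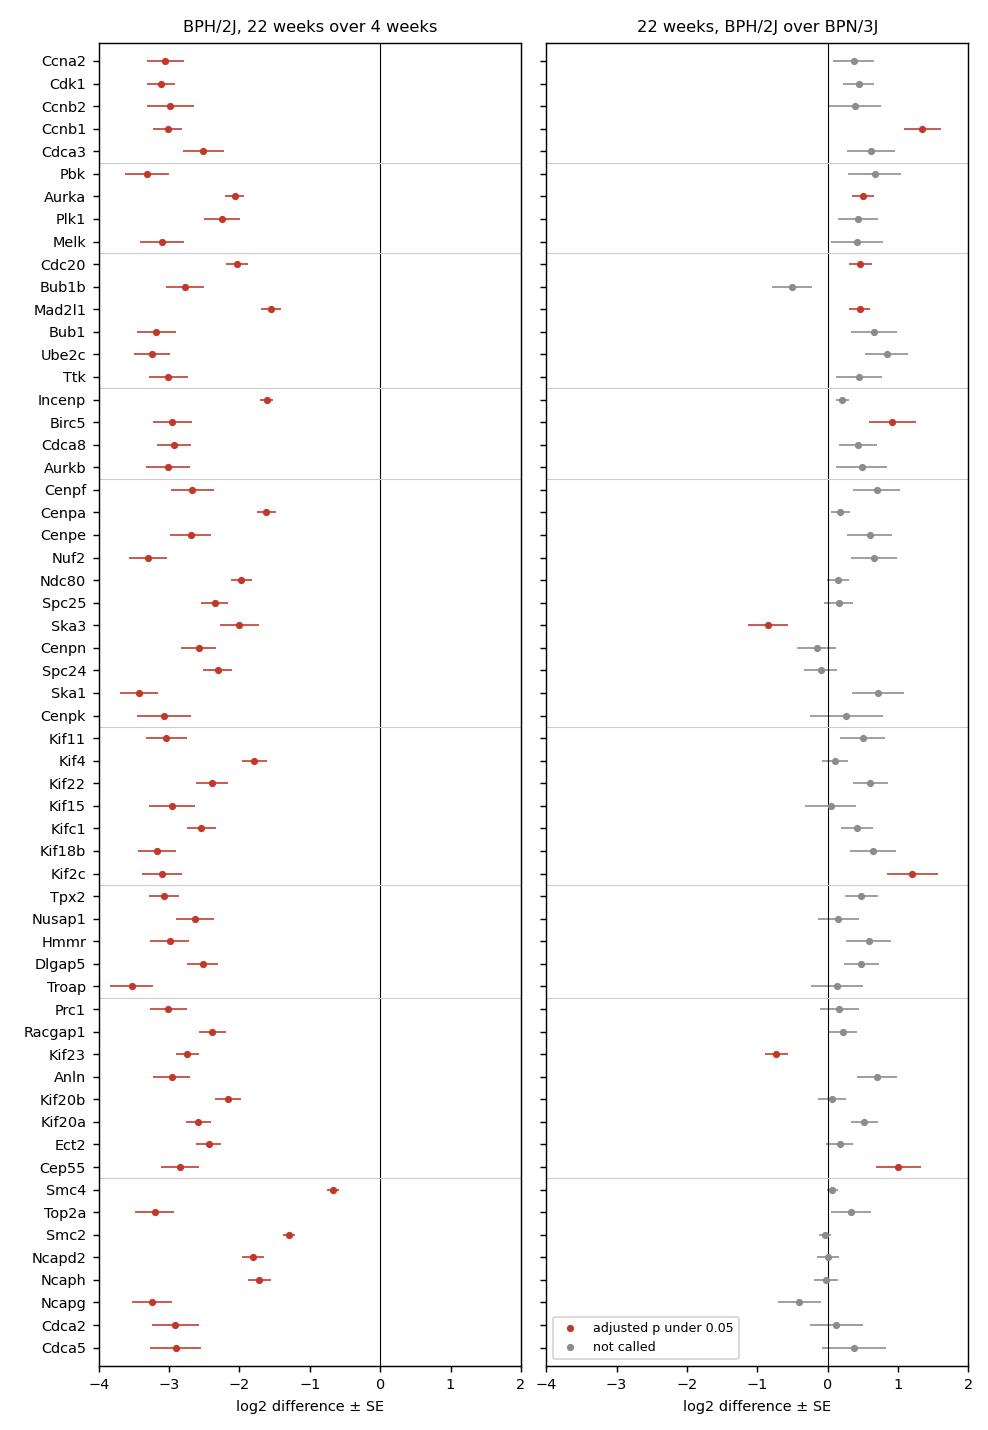
Fitted log2 difference (point) and SE derived from the F statistic (bar) of each of the 58 genes, with 3 libraries a group. The left panel is 22-week over 4-week BPH/2J and the right panel BPH/2J over BPN/3J at 22 weeks. Genes are ordered by role, and red marks an adjusted p below 0.05. All 58 points lie below 0 on the left, from -3.53 to -0.67, and points lie on both sides of 0 on the right, with 7 called higher and 2 called lower.

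Between the lines at 22 weeks, 7 genes were called higher in BPH/2J than in BPN/3J (Ccnb1, Kif2c, Cep55, Birc5, Aurka, Cdc20 and Mad2l1), 2 were called lower (Ska3 and Kif23), and 49 were not called. That is 7 and 2 of 58 where 19.8% of all tested genes were called higher and 18.2% lower. Calls thus made up a smaller share of the 58 genes than of all tested genes. The shares were not matched for level, and many of the 58 had low counts at 22 weeks, which limits calls. Ccnb1, for example, had 52 to 81 counts in BPH/2J and 15 to 28 in BPN/3J. The values of 7 genes did not overlap with BPH/2J higher, where 29.3% of all genes behaved so, and those of 2 with BPH/2J lower, where 26.4% did. Although most were uncalled, 50 of the 58 had a fitted difference above 0, and the median was 0.42 beside 0.02 over all genes. Markers that differed between the same groups included 8 of 10 macrophage markers and 5 of 9 tested cardiomyocyte markers lower in BPH/2J, with macrophage sums of 259 to 311 CPM in BPH/2J and 399 to 650 CPM in BPN/3J. Of 10 endothelial markers, 6 were higher in BPH/2J and 2 lower. Pericyte with smooth muscle markers gave 2 higher of 10, with sums of 1800.3 to 1997 CPM in BPH/2J and 1334 to 1519 CPM in BPN/3J that did not overlap. Fibroblast markers gave 1 higher and 2 lower of 10, lymphocyte markers 1 higher of 10, and erythroid genes 3 lower of 5 tested. Mitochondrially encoded transcripts took 1.91%, 1.45% and 1.59% of counts in BPH/2J, against 2.62%, 2.78% and 2.02% in BPN/3J, also without overlap. The part of these shifts in the mitotic genes was not tested.

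These counts depended on single libraries. Replicate 2 of 22-week BPH/2J was the highest of its group for 58 of 58 genes, whereas it was the highest for 36.0% of all tested genes, and the 58 genes summed to 457 CPM there and to 297 and 315 CPM in the others. Replicate 2 of 4-week BPH/2J was the lowest of its group for 58 of 58, whereas it was the lowest for 32.6% of all tested genes. In BPN/3J, replicate 2 was the lowest for 46 of 58, whereas it was the lowest for 29.9% of all tested genes. Without replicate 2 of 22-week BPH/2J, the median difference between the lines was 0.03 over the 58 genes and 0.02 over all genes, and 30 of 58 were above 0. Then 1 gene was called higher, Ccnb1, and 4 were called lower, Ska3, Kif23, Bub1b (log2 -0.97 ± 0.20, adjusted p = 0.00606) and Ncapg (log2 -0.87 ± 0.25, adjusted p = 0.0277). Exons of Ncapg overlap Lcorl on the opposite strand, which was itself lower in BPH/2J with all libraries (log2 -0.27, edgeR adjusted p = 0.0245), with the same limit on strand. In that fit 15.7% of all tested genes were called higher and 14.7% lower. Other libraries moved the counts too. Without 22-week BPH/2J replicate 1 there were 13 higher and 1 lower, where 15.7% of all genes were higher and 13.9% lower. Without its replicate 3 there were 4 higher and 1 lower, where the shares were 14.6% and 13.4%. Leaving out BPN/3J replicate 1 gave 3 higher and 2 lower (16.7% and 15.8% of all genes), replicate 2 gave 1 and 2 (15.2% and 14.6%), and replicate 3 gave 6 and 1 (14.9% and 14%). Ccnb1 and Kif23 stayed called in each of 20 alternative settings, at log2 1.12 to 1.54 and -0.96 to -0.60. The other 7 lost the call in 3 to 10 of them.

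**Figure D5:**
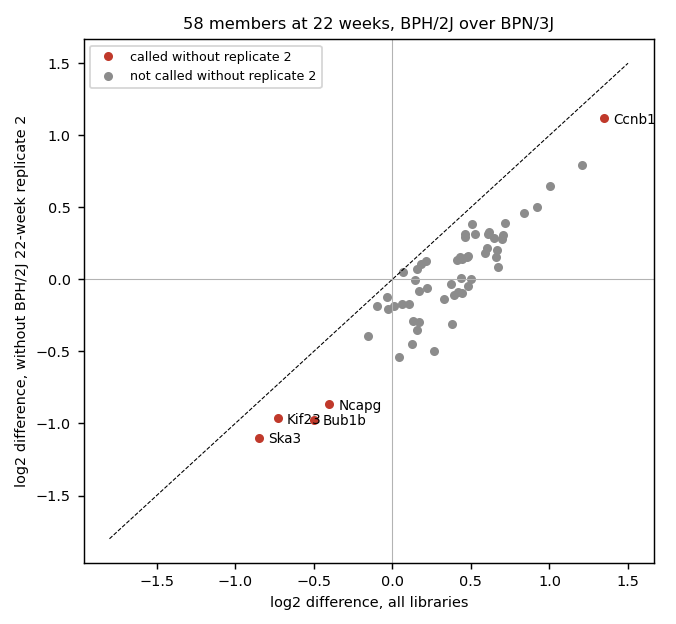
Fitted log2 difference of the 58 genes at 22 weeks, BPH/2J over BPN/3J, with all libraries (horizontal) and without replicate 2 of 22-week BPH/2J (vertical). The dashed line marks equal values and red marks an adjusted p below 0.05 without that replicate. All 58 points lie below the dashed line, and the median is 0.03 without the replicate and 0.42 with it.

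The 4-week BPH/2J libraries also stood above 22-week BPN/3J, a contrast in which line and age cannot be told apart. It shares the 4-week and the BPN/3J libraries with the contrasts above, so it is no independent evidence. All 58 genes were called higher in 4-week BPH/2J, where 27.8% of all genes were called higher and 25.3% lower, and none of the 58 overlapped, where 30.5% of all genes were higher and 28.7% lower without overlap. The median log2 difference was 3.12, with Ccnb1 (20.7-fold) and Kif2c (19.8-fold) at the top and Smc4 (1.67-fold) at the bottom.

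Levels per kb of gene length put the 58 genes on a scale shared between genes. In 4-week BPH/2J, Smc4 was highest at 24.8 ± 1.80 CPM per kb (SD, n = 3), and Cdc20 (21.5 ± 3.28) and Ccnb2 (20.5 ± 5.63) followed, 2 neighbours that did not differ beyond their spread. Cenpk was lowest at 1.51 ± 0.17 CPM per kb. In 22-week BPH/2J, Smc4 was again highest, at 15.6 CPM per kb, and Cdc20 second at 5.24. At that age Smc2 (4.83), Incenp (4.53), Ncapd2 (3.76), Cenpa (3.34) and Mad2l1 (3.11) followed, all of them genes that fell less than 4-fold. The 22-week level enters both the rank and the fall, so this link is partly built in.

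Other genes of the same pathways come from lists that were chosen with earlier results of these data known, and their counts at 22 against 4 weeks are read against the 21.1% of all tested genes called lower and the 19.9% called higher. Of 22 other regulators of mitotic entry and exit, 19 were called lower and 0 higher, with a median log2 difference of -1.68. Mki67, the proliferation marker Ki-67, averaged 25.0 ± 12.9 CPM in 22-week BPH/2J and 200.4 ± 22.4 CPM in 4-week BPH/2J (SD, n = 3), and fell by log2 3.00 (edgeR adjusted p = 7.42e-05), and the kinase Nek2 fell by log2 2.83. Of 31 other kinetochore and centromere genes, 27 were lower and 0 higher (median -1.32), led by Sgol1 (shugoshin, log2 -3.12) and Casc5 (the kinetochore scaffold Knl1, -3.01). Of 25 other spindle and cytokinesis genes, 22 were lower and 1 higher (median -1.92), led by Depdc1a (-3.28) and Kif14 (-3.26). Of 16 other condensin, cohesin and topoisomerase genes, 8 were lower and 0 higher (median -0.19), led by Esco2, the acetyltransferase of cohesin in S phase (-2.81), and Ncapg2. A list of 15 genes, the APC/C core subunits and Ube2s, a ubiquitin-conjugating enzyme that works with APC/C, gave 3 lower and 1 higher (median -0.06), a share of lower calls close to that of all genes. It was led by Ube2s (-0.80) and the subunit gene Anapc15 (-0.41). The median over all tested genes was 0.005 in this contrast.

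A list of 25 genes held transcription regulators of G2 and M phase genes and also the kinase inhibitor gene Cdkn1a. Of these, 17 were lower and 4 higher at 22 weeks (median -0.45). Foxm1, the forkhead activator of these genes, averaged 8.86 ± 1.83 CPM in 22-week BPH/2J and 44.0 ± 2.99 CPM in 4-week BPH/2J (SD, n = 3), and fell by log2 2.31 (edgeR adjusted p = 8.17e-06). Mybl2 (B-Myb) averaged 2.34 ± 1.25 CPM in 22-week BPH/2J and 15.4 ± 1.84 CPM at 4 weeks, and fell by log2 2.72, and the repressor E2f8 fell by log2 3.41. Between the lines, Foxm1 (log2 -0.32, adjusted p = 0.110) and Mybl2 (log2 0.11, adjusted p = 0.802) were not called. That list gave 4 lower and 3 higher in BPH/2J, led by Cdkn1a (p21, an inhibitor of cyclin-dependent kinases), which averaged 68.0 ± 8.03 CPM in 22-week BPH/2J, 139 ± 15.1 CPM in 4-week BPH/2J and 365 ± 9.67 CPM in BPN/3J (SD, n = 3). Cdkn1a was 5.37-fold lower in BPH/2J at 22 weeks (log2 -2.42 ± 0.10, edgeR adjusted p = 7.77e-08), and E2f7 was lower by log2 0.65. Where 19.8% of all tested genes were called higher and 18.2% lower, the other lists gave 5 higher and 2 lower of 22 entry and exit regulators (led by Cdc25c and Nek2, both higher), 4 and 1 of 31 kinetochore genes (Oip5 and Nsl1, both higher), 7 and 3 of 15 genes of the APC/C list (Anapc4 and Cdc23, both higher), 4 and 1 of 25 spindle and cytokinesis genes (Fam64a and Ckap2, both higher), and 2 and 3 of 16 condensin and cohesin genes (Top1 lower, Top2b higher).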

How the data were processed

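RNA-seq counts of 18094 genes in 9 libraries were used as the authors deposited them, as whole-number counts per gene that had not been normalized. Per the submitters' processing notes, the tools were TopHat2 2.0.13, Bowtie2, CASAVA 1.8.2, edgeR, FastQC, and Subread with its featureCounts, and the build was mm9. The table lists no gene with fewer than 10 counts over the 9 libraries. The sources used here give neither the annotation release nor the strand setting, and the protocol in the labels describes no step that marks the strand. Libraries held 28806840 to 32913813 counts, so that 3 counts, the limit that a count of 0 allows, correspond to 0.0911 to 0.104 CPM. Such limits cover counting error only.

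Genes were filtered on low counts with edgeR 4.0.16 (R 4.3.3), scaled by TMM and fitted over all 3 groups with the quasi-likelihood test, and p-values were adjusted by Benjamini-Hochberg over 15277 genes, with a threshold of 0.05. CPM values were computed from the counts and the TMM factors. The quasi-likelihood test gives no SE, so each SE is the absolute log2 difference divided by the square root of its F statistic. limma 3.58.1 (voom) and DESeq2 1.42.0 served as alternatives, with other scalings, filters and left-out libraries. Annotated copies were found with blastn 2.17.0 (at least 95% identity over at least 200 bases), and figures were drawn with matplotlib 3.10.9 in Python 3.11.15. Promoters came from RefSeq on GRCm38.p6, another build than that of the counts, and were matched by symbol.

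The 58 genes, their roles and all lists were chosen with earlier results of these data known. Values in all 9 libraries are given for the 2 genes of each role with the highest mean CPM (3 in roles of 8 or more) and for genes whose call differed from most. Outside the 58, Foxm1, Mybl2, Mki67 and the 2 called genes of each list with the largest difference are named.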

Additional observations from a re-analysis of the deposited data

How the results depend on the processing

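With age, all 58 genes stayed called lower in BPH/2J in each alternative run, and their median log2 difference ran from -3.22 to -2.56 when 1 library was left out and from -2.89 to -2.77 in the other settings. Between the lines at 22 weeks, leaving out 1 library gave 1 to 4 genes called lower, 1 to 13 called higher and a median of 0.0311 to 0.613. The count of genes called lower was 1 with library totals alone, 1 with limma-voom, 1 with the replicate block and 1 at an adjusted p of 0.01. The count called higher was 11 with DESeq2, 2 with limma-voom, 3 with the replicate block and 1 at an adjusted p of 0.01. Among uncalled genes, the line difference of Smc2 was 0.0264 with library totals alone, and with 1 library left out it ran from -0.12 to 0.0670. In the same way it ran from -0.0336 to 0.62 for Ccna2, -0.000735 to 0.78 for Kif11, -0.17 to 0.24 for Kif4, -0.35 to 0.38 for Nusap1, -0.30 to 0.36 for Prc1, -0.0610 to 0.39 for Racgap1 and -0.13 to 0.55 for Top2a. The cause of these shifts was not tested. The labels name no batch, so equal replicate numbers were not read as pairs. Residual correlations were -0.161 to 0.077 between libraries of equal number and -0.117 to 0.136 between those of unequal number. Taken over all genes and within groups of 3, they cannot show whether libraries shared a batch. Depth limits the lowest genes, such as Cenpk.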
